A study of Sus scrofa and Bos taurus with 31 samples.

Results

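Open chromatin around OLIG1, OLIG2, SOX10, MBP, MOG, MAG and CNP, genes that mark oligodendrocytes and the myelin they make, was followed through 8 pig tissues. They were chosen by name and not by a measured value, but with earlier results of these data known. They are 7 of the 20674 protein-coding genes in the RefSeq annotation of the pig assembly Sscrofa11.1. ATAC-seq, in which a transposase inserts sequencing adapters into open chromatin, was carried out on cryopreserved nuclei of 8 tissues from 2 adult pigs, named P348 and P350, which gave 16 libraries with 1 list of peaks each. Both were Yorkshire littermates and castrated males, by the description in the methods, and tissue was the only factor that separated the groups. Cerebellum, cerebral cortex and hypothalamus formed the brain group (6 libraries), and adipose, liver, lung, skeletal muscle and spleen the group of other tissues (10 libraries). Each tissue was a mixture of cell types, so fewer open cells and less opening per cell cannot be told apart at any gene.

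Oligodendrocytes are the cells of the central nervous system that wrap axons in myelin, a stack of lipid-rich membrane that speeds conduction. OLIG1 and OLIG2 are neighbouring basic helix-loop-helix transcription factors that set up the lineage, and SOX10 is the HMG-box factor that keeps it going and switches on myelin genes. MBP holds the inner faces of the membrane together, CNP is an enzyme of the cytoplasmic channels in myelin, and MAG and MOG sit on the inner and outer surface of the sheath. SOX10, MBP, MAG and CNP are also used by Schwann cells, which make the myelin of peripheral nerves, whereas MOG is a protein of central myelin.

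A gene's level was the number of bases under peaks in the gene and 10 kb on either side, per Mb of all peak bases in that library. Every member had a peak in at least 2 libraries and was tested, as were 19638 genes in all. The cerebellum libraries stood apart. They had the longest lists, with 217308 and 207917 peaks against 99960 to 193317 elsewhere, and the lowest median level over all genes, 11.3 and 17.1 against 21.9 to 35.5 elsewhere. The median gene was 0.51 lower in brain than in the other tissues on the log2 scale, and 8865 genes were called lower in brain against 1975 called higher, so differences of single genes are read here beside that shift.

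Between brain and the other tissues, OLIG2 was the 1 member of 7 that differed past the threshold, with a higher level in brain. All genes had a background of 10.1% called higher in brain and 45.1% called lower. Members had a median log2 difference in level of -0.01, against -0.51 for all genes. The brain level of OLIG2 was 10.1 and 25.9 bases per Mb in cerebellum of P348 and P350, 27.4 and 31.7 in cerebral cortex, and 18.8 and 21.8 in hypothalamus. In the other tissues it ran from 0, where no peak was listed in skeletal muscle of P350 and spleen of P348, through a median of 12.6 to 23.8 in lung of P348. Cortex stood highest and muscle and spleen lowest, and the groups overlapped through lung, adipose, liver, hypothalamus and cerebellum. The log2 difference in level was 1.49 ± 0.42 (SE, limma, adjusted p = 0.0130). An exact two-sided permutation test over the 56 choices of 3 of the 8 tissues gave p = 0.196 for OLIG2, where 0.0179 is the smallest it can give. The limma call of OLIG2 was also lost when 6 libraries were set against 10 without regard to tissue (adjusted p = 0.116), and with a pseudocount of 0.1 (0.0608). It was lost as well within 2 kb of the starts (0.101), and with numbers of peaks (0.174) or the highest fold in the window (0.0828) in place of bases. With that fold OLIG1 was called higher in brain, at 0.34 ± 0.07 (limma, adjusted p = 0.00867), against 11.6% of genes. With each library centred on its median gene, an alternative added after the data were seen, OLIG2, OLIG1 and MBP were called higher in brain, 3 of 7, at log2 differences of 2.03 ± 0.41, 0.78 ± 0.24 and 0.83 ± 0.27 (adjusted p = 0.00470, 0.0350 and 0.0402), against 18.4% of genes, and the split of all genes was 3621 higher and 1851 lower.

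OLIG1, which lies on the same chromosome and strand as OLIG2, had levels of 11.9 and 25.7 bases per Mb in cerebellum, 40.5 and 36.4 in cortex and 52.2 and 47.0 in hypothalamus. Its lowest, median and highest levels in the other tissues were 11.5, 27.3 and 59.4, the last in liver of P348. Hypothalamus had the highest tissue mean, but 1 liver library stood above it and the groups overlapped, with a log2 difference in level of 0.24 ± 0.29 (adjusted p = 0.491).

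SOX10 was nearly without peaks in cerebellum, with 1.82 bases per Mb in P348 and 0 in P350. Its level was 24.4 and 32.0 in cortex and 47.6 and 35.2 in hypothalamus, and in the other tissues 3.02, 12.9 and 32.7 as lowest, median and highest. Both hypothalamus libraries stood above all 10 others, while the cortex libraries fell within the range of lung. With cerebellum in the brain group the log2 difference in level was -0.01 ± 0.31 (adjusted p = 0.983). Without the cerebellum libraries, another alternative added later, it was 1.45 ± 0.31 (adjusted p = 0.0146), where 5.04% of genes were called higher and the median gene was at -0.22.

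Of the myelin sheath genes, MBP had the longest window and the most peaks, from 3 to 15 in a library. Its level was 20.3 and 58.4 bases per Mb in cerebellum, 93.2 and 89.5 in cortex and 99.6 and 53.3 in hypothalamus, against 16.6, 61.2 and 97.0 as lowest, median and highest in the other tissues. Skeletal muscle of P348 reached 97.0, and the libraries of muscle and cortex overlapped. The zinc finger gene ZNF236 reaches into the MBP window, as POLR2F does into that of SOX10. The log2 difference in level between brain and other tissues was 0.29 ± 0.29 (adjusted p = 0.395).

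CNP had 7.90 and 14.8 bases per Mb in cerebellum, 46.2 and 38.6 in cortex and 71.5 and 38.3 in hypothalamus, against 20.2, 32.2 and 59.5 as lowest, median and highest in the other tissues. The cerebellum libraries were the lowest of all 16 and spleen and hypothalamus had the highest means, 54.9 each. DNAJC7 and TTC25 reach into the CNP window. The log2 difference in level was -0.21 ± 0.26 (adjusted p = 0.505).

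MOG had 5.42 and 17.6 bases per Mb in cerebellum, 26.4 and 37.1 in cortex and 23.0 and 36.0 in hypothalamus, with 16.5, 22.8 and 51.5 as lowest, median and highest in the other tissues. Its highest level, in skeletal muscle of P350, lay outside the brain and came from only 2 peaks, neither of them at the start of MOG. One region of that window, at its downstream edge, lies within 2 kb of the start of the zinc finger gene ZFP57. MAG had 1.39 and 19.5 bases per Mb in cerebellum, 47.4 and 51.7 in cortex and 41.2 and 23.3 in hypothalamus, with 21.8, 38.2 and 60.4 as lowest, median and highest elsewhere. Cerebellum was again below every other library, and muscle of P350 was the highest. At the upstream edge of the MAG window, 2 regions lie within 2 kb of the start of HAMP, the gene of the iron hormone hepcidin. The log2 differences in level were -0.27 ± 0.28 for MOG (adjusted p = 0.417) and -0.76 ± 0.39 for MAG (adjusted p = 0.111).

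**Figure D1:**
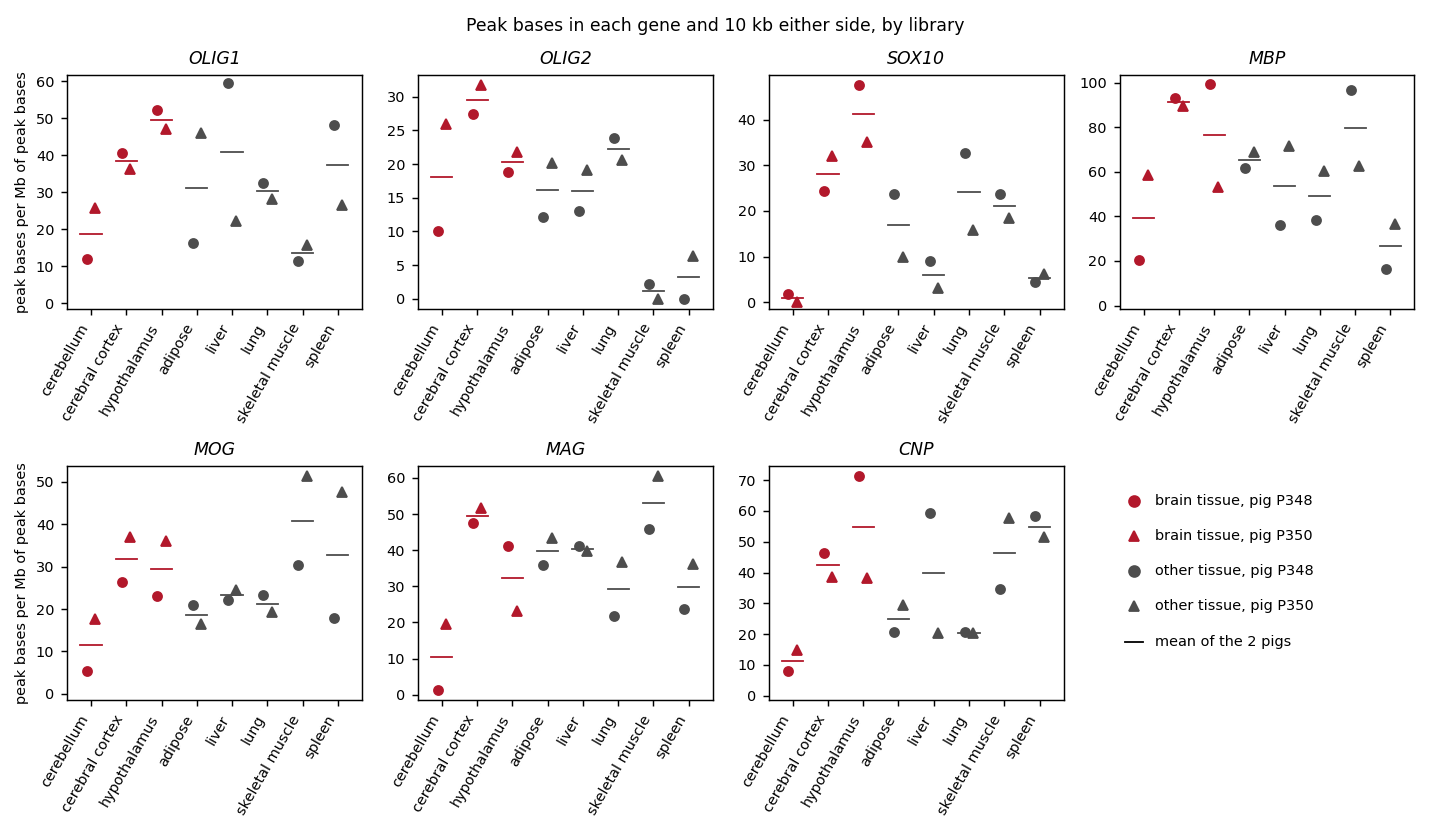
Level of each gene (y axis, peak bases per Mb of all peak bases in the library) in 8 pig tissues (x axis), with a circle for P348, a triangle for P350 and a bar for their mean, brain tissues in red and others in grey. No gene has all 6 brain libraries above all 10 others, and cerebellum is the lowest brain tissue for each of the 7 genes by its mean.

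Ordered by tissue mean, neighbours in the order were rarely apart. Of the 7 neighbouring pairs of tissues for each gene, none had libraries that did not overlap for MBP and MOG, 1 did for OLIG1 and CNP, 2 for OLIG2 and MAG and 3 for SOX10. The pair lung and cerebellum was apart for OLIG1, MAG and CNP, with cerebellum lower. For SOX10 the pairs were hypothalamus above cortex, adipose above liver, and spleen above cerebellum. The number of members whose 6 brain libraries all had a higher level than all 10 others was 0 of 7, and 0.397% of genes had that pattern. With the 4 cortex and hypothalamus libraries in place of the 6 it was also 0 of 7, against 0.810% of genes.

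The comparison among the brain tissues asked whether the genes open alike in all 3. In cortex against cerebellum, SOX10, MAG, CNP and MOG were called higher in cortex, 4 of 7, and 38.6% of all genes were called higher there and 6.18% lower. The log2 difference in level was 4.11 ± 0.60 for SOX10 (limma, adjusted p = 0.00128), 2.85 ± 0.75 for MAG (0.0135), 1.87 ± 0.50 for CNP (0.0149) and 1.56 ± 0.55 for MOG (0.0388), beside 0.92 for the median gene. MBP, OLIG1 and OLIG2 had 1.37 ± 0.56, 1.09 ± 0.57 and 0.82 ± 0.81 and did not pass. With the same centring, SOX10 alone of the 7 stayed past the threshold at 3.21 (adjusted p = 0.00883), where 5.82% of genes were called higher and the split of all genes turned from 7575 higher and 1213 lower to 1143 higher and 2080 lower. SOX10 was also the 1 call left when cerebellum of P348, cortex of P348 or cortex of P350 was left out (10.5%, 13.4% and 17.2% of all genes called higher), and the MOG call was lost without either lung library (adjusted p = 0.0513).

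In hypothalamus against cerebellum, SOX10 and CNP were called higher in hypothalamus, 2 of 7, against 22.7% of all genes called higher and 3.61% called lower. The log2 difference in level was 4.64 ± 0.60 for SOX10 (limma, adjusted p = 0.00122) and 2.17 ± 0.50 for CNP (0.0179), beside 0.74 for the median gene. Without cerebellum of P348 or hypothalamus of P348 the CNP call was lost and 1 call was left, while without cerebellum of P350 there were 6 calls. The share of all genes called higher moved as well, to 0.848% without cerebellum of P348, 3.11% without hypothalamus of P348 and 36.3% without cerebellum of P350. Centred on the median gene, SOX10 was left at 3.90 ± 0.66 (adjusted p = 0.00611), against 1.80% of genes called higher, and the split of all genes turned from 4459 higher and 708 lower to 353 higher and 1025 lower. Cortex and hypothalamus were compared as well, and 0 of the 7 genes passed in either direction in limma, with 0 at an unadjusted p under 0.05, against 0.285% of genes called higher in cortex and 0.219% called lower.

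Peaks near the annotated transcription start sites separated the genes in another way. A peak within 2 kb of a start was found in a larger share of brain than of other libraries for 4 of 7 members, OLIG2, SOX10, MBP and MOG, and for 16.2% of all coding genes. MOG had such a peak in 5 of 6 brain libraries, all but cerebellum of P348, and in 0 of 10 others. Only 12 of 20674 genes, 0.0580%, had a start peak in at least 5 brain libraries and no other. SOX10 had one in all 4 cortex and hypothalamus libraries, in neither cerebellum library, and in 4 of 10 others (both adipose libraries, lung of P350 and skeletal muscle of P348). A start peak in all 4 cortex and hypothalamus libraries and neither cerebellum library was seen for 0.967% of genes. OLIG1 had a start peak in all 16 libraries, as did 54.7% of genes. OLIG2 and MBP had one in all 6 brain libraries and in 8 and 7 of the others, and MAG and CNP in 5 brain libraries and all 10 others. Within 500 bp of a start, MAG had a peak in 5 brain libraries and 1 other. At that distance SOX10 had 4 and 1, OLIG2 4 and 5 and MBP 6 and 6, and MOG, OLIG1 and CNP kept their counts. Within 2 kb but with q under 0.0001, SOX10 had 4 and 0, OLIG2 5 and 1, MBP 5 and 2, MAG 5 and 7 and CNP 4 and 8. No share of all genes is given under these limits.

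The strength of those peaks, given by the fold enrichment over local background in the deposited lists, followed the same division. At MOG the highest fold within 2 kb of the start was 7.29 and 7.47 in cortex, 7.71 and 7.83 in hypothalamus and 4.65 in cerebellum of P350. All 4 cortex and hypothalamus libraries were above that cerebellum library, and the 11 remaining libraries listed no peak there. At OLIG2 the fold was 4.66 and 4.44 in cortex, 4.98 and 4.91 in hypothalamus, and 2.16 and 3.42 in cerebellum, against at most 3.41 in the other tissues. At SOX10 it was 2.87 and 3.08 in cortex and 3.28 and 3.19 in hypothalamus, against at most 2.25 in the other tissues. For these 3 of the 7 genes the 4 cortex and hypothalamus libraries were all above the 10 others, a pattern held by 1.63% of coding genes. MBP reached 4.51 to 5.24 in cortex and hypothalamus, but skeletal muscle of P350 was higher, at 7.89. At OLIG1 the fold was 4.54 to 4.87 in cortex and hypothalamus, and both muscle libraries were higher, at 6.35 and 7.12. MAG and CNP were strongest in spleen and liver respectively, with means of 5.36 and 4.74. For MAG this holds for the 2 kb distance, as only 1 library from outside the brain had a peak within 500 bp of its start.

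**Figure D2:**
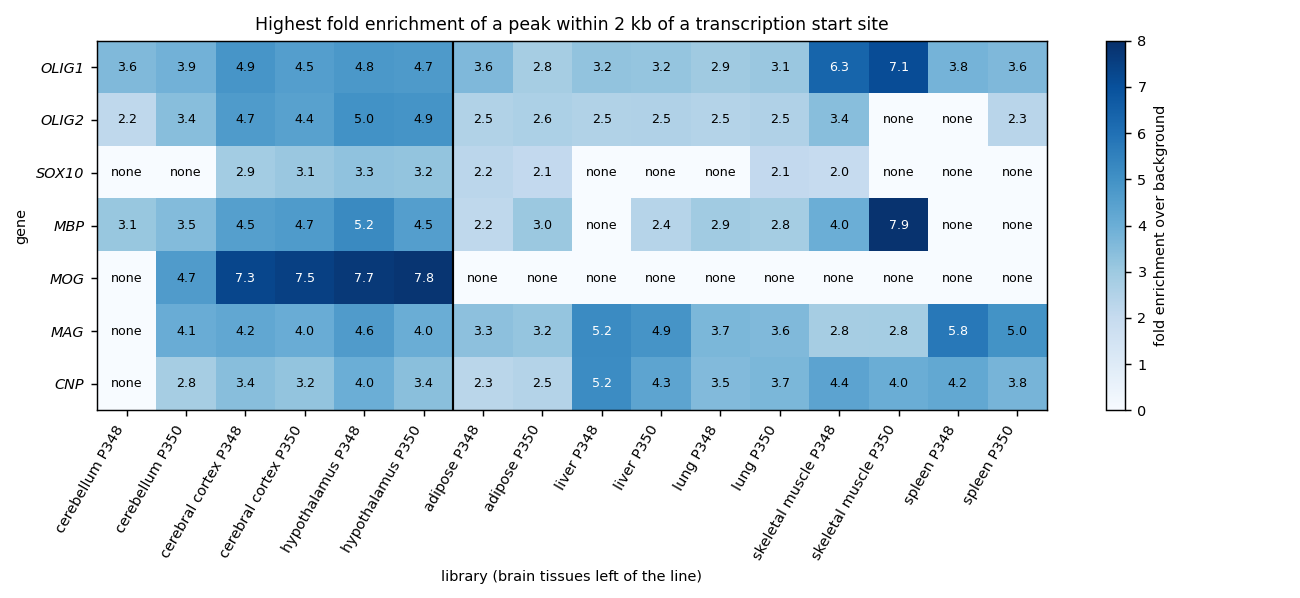
Highest fold enrichment of a peak within 2 kb of a transcription start site, printed and coloured for each gene (rows) and library (columns), with brain libraries left of the line and "none" where no peak was listed. MOG reads 7.3 to 7.8 in cortex and hypothalamus and none in the 10 libraries of other tissues.

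Counting peak bases only within 2 kb of the starts, MOG and SOX10 were the members called higher in brain, 2 of 7, against 4.09% of genes. The log2 difference in level in that window was 2.05 ± 0.22 for MOG (limma, adjusted p = 3.9e-04) and 1.67 ± 0.49 for SOX10 (adjusted p = 0.0321). When peaks were limited to those with q under 0.0001 in the gene and 10 kb on either side, 4 of 7 were called higher in brain, against 7.44% of genes. These were OLIG1 at a log2 difference of 4.02 ± 0.81 (adjusted p = 0.00691), OLIG2 at 3.75 ± 0.52 (7.6e-04), SOX10 at 2.70 ± 0.20 (1.0e-05) and MBP at 1.09 ± 0.27 (0.0180). The differences of all 7 members were above those over all peaks, as was the median of all genes, at -0.22.

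Peaks of the 16 libraries that shared at least 1 base were merged into regions, and 76 regions touched the 7 windows, from 6 for OLIG1 to 22 for MBP. Among them, 7 had a higher fold in each of the 4 cortex and hypothalamus libraries than in any of the 10 others, which is 9.21%, against 1.52% of all 533944 merged regions. They were found at 5 genes, with 2 at OLIG1, 2 at SOX10 and 1 each at OLIG2, MOG and CNP, and at neither MBP nor MAG. Counted only by presence, 5 of the 76 regions (6.58%) had a peak in both pigs of at least 1 brain tissue and in no other library, against 8.20% of all regions. The reverse, both pigs of at least 1 other tissue and no brain library, held for 8 (10.5%, against 9.13%).

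Sequences from within regions that had these patterns are given from the Sscrofa11.1 RefSeq genome, on the plus strand, the coding strand of all 4 genes shown. Each fold is the highest of any peak in the merged region. A printed stretch need not lie under the peak that gave it, and the part of the motifs in the patterns was not tested. They were chosen after the values were seen, since no member met the stricter limits set for printing. Capitals mark matches to ACAAAG or ACAATG, forms of the SOX core motif, or to CAGCTG or CATATG, forms of the E-box that OLIG factors can bind, each searched on both strands with no overlap between them. In 300-base windows before the starts of all coding genes, ACAAAG was present in 15.1%, ACAATG in 9.42%, CAGCTG in 15.8% and CATATG in 7.07%. In 300-base windows at the centre of all merged regions the shares were 20.1%, 15.1%, 20.6% and 12.1%.

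At the start of MOG, the region chr7:22595152-22595624 had the fold values given above and no peak outside the brain. The MOG model is marked partial and begins with a start codon, so its first base need not be the true start of transcription, and only the stretch from the beginning of the region to 250 bases before the model, chr7:22595152-22595314, is shown, with no match to the 4 motifs.
MOG region before the model start: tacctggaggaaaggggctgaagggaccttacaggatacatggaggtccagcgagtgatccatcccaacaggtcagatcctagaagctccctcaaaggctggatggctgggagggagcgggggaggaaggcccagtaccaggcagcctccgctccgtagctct

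SOX10 had a region at its start, chr5:9890115-9891677, with folds of 2.87, 3.08, 3.28 and 3.19 in cortex and hypothalamus, none in cerebellum and 2.07 in adipose of P350 as the only other library. The 300 bases before the first exon, chr5:9890139-9890438, lie within it and hold ACAATG once, on the minus strand. A broader region upstream, chr5:9878045-9882988, with its nearest edge 7451 bases from the start, had folds of 4.15 and 5.17 in cortex, 2.96 and 5.69 in hypothalamus, 2.57 in cerebellum of P350 and at most 2.77 in 7 libraries of other tissues. Its central 300 bases, chr5:9880367-9880666, overlap no exon of a coding gene and hold CAGCTG once. Both are shown because cortex and hypothalamus were above every other tissue at them.
SOX10 promoter: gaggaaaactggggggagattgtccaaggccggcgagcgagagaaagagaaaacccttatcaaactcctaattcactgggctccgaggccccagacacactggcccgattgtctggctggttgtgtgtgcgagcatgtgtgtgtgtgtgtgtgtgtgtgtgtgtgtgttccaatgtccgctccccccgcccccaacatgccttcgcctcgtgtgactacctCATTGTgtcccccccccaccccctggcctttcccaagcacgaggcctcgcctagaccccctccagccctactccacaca
SOX10 upstream region: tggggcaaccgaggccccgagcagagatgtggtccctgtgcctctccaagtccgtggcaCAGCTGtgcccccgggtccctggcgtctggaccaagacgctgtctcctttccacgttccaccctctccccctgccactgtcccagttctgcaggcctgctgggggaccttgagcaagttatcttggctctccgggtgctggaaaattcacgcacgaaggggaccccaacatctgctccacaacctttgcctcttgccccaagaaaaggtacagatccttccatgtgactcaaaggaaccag

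At OLIG1 the start itself had a peak in every library, with the highest folds in skeletal muscle, 6.35 and 7.12. The regions where cortex and hypothalamus stood above every library from outside the brain lay to either side. The upstream region chr13:196637861-196638783, with its nearest edge 5282 bases from the start, had folds of 3.80 and 3.79 in cortex, 4.19 and 3.79 in hypothalamus and 2.37 in cerebellum of P350, and no peak in cerebellum of P348 or in any of the 10 other libraries. Presence in all 4 cortex and hypothalamus libraries and no library outside the brain, as here and at the start of MOG, held for 2 of 76 member regions and for 0.422% of all regions. The downstream region chr13:196652304-196654121 had folds of 5.24 and 7.19 in cortex, 5.72 and 5.58 in hypothalamus, 2.46 and 3.80 in cerebellum, and at most 2.90 in the 6 other libraries that had a peak. Every cortex and hypothalamus library was above every library from outside the brain at both regions. The centres of both, chr13:196638172-196638471 and chr13:196653063-196653362, are shown and hold none of the 4 motifs.
OLIG1 upstream region: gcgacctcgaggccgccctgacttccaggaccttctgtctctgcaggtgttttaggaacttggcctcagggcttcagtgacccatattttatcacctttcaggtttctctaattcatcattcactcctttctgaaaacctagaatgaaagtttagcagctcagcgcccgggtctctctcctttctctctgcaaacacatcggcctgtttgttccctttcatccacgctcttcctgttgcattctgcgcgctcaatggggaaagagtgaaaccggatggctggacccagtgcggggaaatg
OLIG1 downstream region: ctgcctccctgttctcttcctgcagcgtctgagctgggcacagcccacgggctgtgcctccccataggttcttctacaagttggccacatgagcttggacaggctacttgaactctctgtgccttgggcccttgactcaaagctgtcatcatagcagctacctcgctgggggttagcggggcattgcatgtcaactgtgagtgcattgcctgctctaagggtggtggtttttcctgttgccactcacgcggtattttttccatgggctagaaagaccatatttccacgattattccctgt

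MAG had a region in an intron, chr6:44801913-44802647, with its nearest edge 7716 bases inside the gene, which was listed at folds of 3.63 and 3.28 in cortex and 3.15 in hypothalamus of P350 and in no other library. It is shown as the region of MAG found in the most brain libraries without any other, and the only further MAG region in brain alone was listed in a single cortex library. Its centre, chr6:44802130-44802429, holds ACAATG once, on the minus strand.
MAG intron region: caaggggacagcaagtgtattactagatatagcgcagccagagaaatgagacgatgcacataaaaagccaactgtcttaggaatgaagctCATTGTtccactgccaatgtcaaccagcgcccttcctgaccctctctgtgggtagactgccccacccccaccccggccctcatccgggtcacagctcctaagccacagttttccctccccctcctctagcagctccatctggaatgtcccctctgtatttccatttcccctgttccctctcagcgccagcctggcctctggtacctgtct

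OLIG2 and CNP carried their strongest brain regions inside the gene and across its end, respectively. At OLIG2 the region chr13:196598060-196599228, across the end of the first exon and into the intron, had folds of 4.66 and 4.44 in cortex, 4.98 and 4.91 in hypothalamus, 2.16 and 3.42 in cerebellum and at most 3.41 in 6 libraries of other tissues. Its downstream region chr13:196603221-196604725 was present in all 6 brain libraries and in 2 others. At CNP the region chr12:20755874-20759799, over the last exon and beyond the end of the gene, had folds of 6.38 and 7.64 in cortex, 4.94 and 7.54 in hypothalamus, none in cerebellum of P348 and 3.36 in that of P350. Outside the brain the same region was listed in 7 libraries, with a highest fold of 4.14. The start region of CNP showed no such order, with 3.19 to 3.97 in cortex and hypothalamus and up to 5.17 elsewhere.

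MBP had 2 regions present in all 6 brain libraries and in few others. A downstream region, chr1:147686251-147687866, was present in 2 of the 10 other libraries and an intron region, chr1:147665796-147667674, in 3. The median brain fold was 2.69 at the former and 2.50 at the latter, against highest folds of 2.82 and 2.74 in the other tissues, so presence and not strength set these regions apart. The region at the MBP start, chr1:147648756-147651231, was present in all 6 brain libraries and 7 others.

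**Figure D3:**
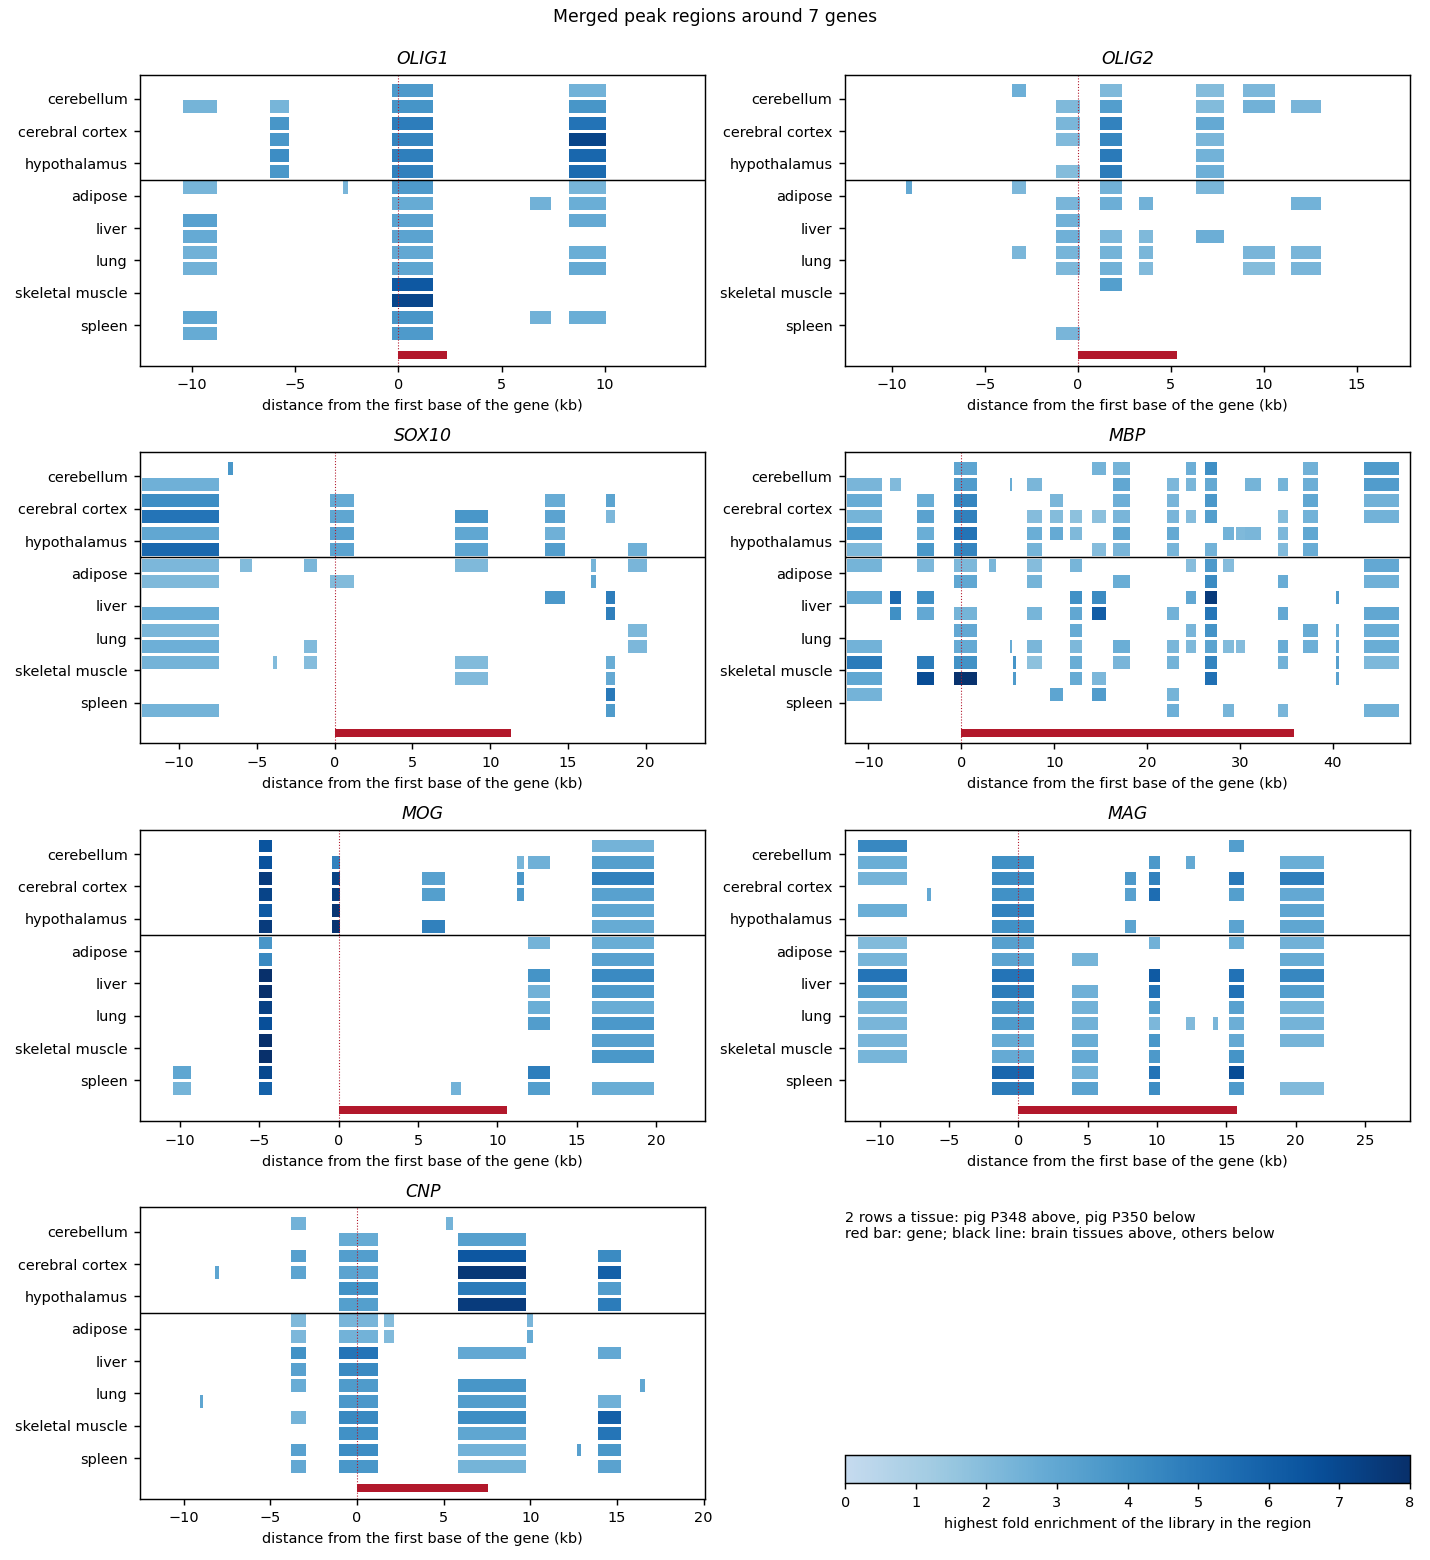
Merged peak regions by distance from the first base of each gene (x axis, kb) with 2 rows per tissue (y axis, P348 above P350), coloured by the highest fold enrichment of that library anywhere in the region (darkest at 8 or more), brain tissues above the black line and the gene as a red bar. The start of MOG and the region upstream of OLIG1 are filled in cortex and hypothalamus and blank in all 10 libraries below the line.

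Other genes of the lineage and of myelin were taken as whole lists. Their counts stand beside the shares of all genes, 10.1% called higher in brain and 45.1% called lower. Without the cerebellum libraries those shares were 5.04% and 11.8%. Of 15 other lineage regulators, 3 were called higher in brain and 1 lower, with a median log2 difference in level of 0.05 against -0.51 for all genes. Among those called higher were SOX5, at 1.87 ± 0.19 (limma, adjusted p = 1.3e-04), and SOX6, at 0.64 ± 0.18 (0.0121). The regulator called lower was HES5, a Notch target that holds back differentiation, at -0.58 ± 0.15, near the median of all genes. MYT1 had the lowest value, -0.62 ± 0.38 (0.178), which did not pass. Without the cerebellum libraries SOX5 was at 1.46 (0.00307), SOX6 at 0.10 (0.744) and HES5 at -0.13 (0.613). In that fit 4 of the 15 were called higher and 0 lower.

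Of 24 other myelin protein and lipid genes, 5 were called higher in brain and 4 lower, with a median log2 difference in level of 0.03. ERMN, a cytoskeletal protein of mature oligodendrocytes, had the largest difference of them at 3.15 ± 0.17 (limma, adjusted p = 4.0e-06). Its level ran from 3.13 to 29.3 bases per Mb in brain and from 0 to 12.8 in the other tissues, with a median of 0 there, and its start peaks were in 5 brain libraries and 0 others, as for MOG. UGT8, which makes the galactolipids of myelin, was also called higher, at 1.42 ± 0.22 (9.4e-04). The genes called lower were ASPA at -2.52 ± 0.41 (0.00113), BCAS1 at -0.81 ± 0.17 (0.00411), HAPLN2 at -0.57 ± 0.20 (0.0335) and CD9 at -0.51 ± 0.14 (0.0126), the last equal to the median of all genes. Without the cerebellum libraries, limma called 8 of the 24 higher and 2 lower, ASPA at -2.12 (adjusted p = 0.00474) and BCAS1 at -0.65 (0.0253). HAPLN2 was then at -0.21 (0.445) and CD9 at -0.20 (0.391).

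Of 13 surface and signal genes of the lineage, 4 were called higher and 3 lower, with a median of -0.04. PTPRZ1 was at 1.21 ± 0.34 (adjusted p = 0.0136), GPR37, a receptor of maturing oligodendrocytes, at 0.75 ± 0.22 (0.0157) and ENPP2 at 0.61 ± 0.18 (0.0170). KLK6, a protease, at -0.95 ± 0.30 (0.0197), TMEM63A at -0.82 ± 0.26 (0.0216) and ERBB3, a neuregulin receptor, at -0.76 ± 0.23 (0.0173) were called lower. Without the cerebellum libraries, limma called 2 of the 13 higher and 0 lower. There KLK6 was at -0.12 (adjusted p = 0.767), TMEM63A at -0.42 (0.133), ERBB3 at -0.20 (0.585), PTPRZ1 at 1.07 (0.0945), GPR37 at 0.93 (0.0240) and ENPP2 at 0.46 (0.151). With q under 0.0001, KLK6 was higher in brain, at 3.13 (1.3e-05).

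Markers of other cells in these tissues were counted in the same way, beside the same shares of all genes, 10.1% called higher and 45.1% called lower. Of 11 Schwann cell genes, 2 were called higher in brain and 6 lower, or 1 and 2 without the cerebellum libraries. Over all libraries their median log2 difference in level was -0.58. CDH19 at 2.17 ± 0.26 (adjusted p = 2.6e-04) and SCN7A at 1.65 ± 0.42 (0.00819) were higher, L1CAM was at 0.35 ± 0.57 (0.607), and PRX, a protein of peripheral myelin, had the lowest value at -1.65 ± 0.46 (0.0122). The start of CDH19 had a peak in 5 brain libraries and 0 others. The summed level of the Schwann cell list was 186 and 197 bases per Mb in cerebellum, 225 to 306 in cortex and hypothalamus, and 261 to 488 in the other tissues, and its part in the members' values was not tested.

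Neuron genes had 4 of 9 called higher and 1 lower, with a median of 0.32. NEFM was at 0.99 ± 0.26 (adjusted p = 0.00951), SNAP25 at 0.86 ± 0.16 (0.00218), STMN2 at 0.77 ± 0.30 (0.0482), SYN1 at -1.08 ± 0.22 (0.00318) and RBFOX3 at -1.10 ± 0.45 (0.0548). Astrocyte genes had 1 of 10 higher, the gap junction gene GJA1 at 0.92 ± 0.27 (0.0149), and 2 lower, with AQP4 at 0.70 ± 0.41 (0.165), SLC1A3 at 0.20 ± 0.16 (0.312) and FGFR3 at -0.64 ± 0.22 (0.0300). Microglia and macrophage genes had 0 of 10 higher and 5 lower, beside 45.1% of all genes called lower. Their median was -0.80, from P2RY12 at 0.93 ± 0.38 (0.0593), C1QA at -0.40 ± 0.19 (0.0845) and CX3CR1 at -0.54 ± 0.28 (0.115) to ITGAM at -2.84 ± 0.50 (0.00158). Without the cerebellum libraries, neuron genes had 3 higher and 0 lower, astrocyte genes 1 and 0, and microglia and macrophage genes 0 and 1.

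The summed level of the 7 members was 58.8 and 162 bases per Mb in cerebellum, 255 to 354 in cortex and hypothalamus and 169 to 266 in the other tissues. Cortex and hypothalamus were also above cerebellum in the lists of neurons (452 to 787 against 209 and 324), astrocytes (439.9 to 611 against 306 and 405) and other myelin genes (1042 to 1219 against 426 and 659). The same held for surface and signal genes (761 to 784 against 496 and 552) and Schwann cell genes (225 to 306 against 186 and 197). Microglia and macrophage genes had it too (196 to 307 against 99.4 and 144). The median level over all genes was likewise lower in cerebellum, at 11.3 and 17.1 against 21.9 to 27.4. The summed level of the other lineage regulators did not share this order, with 1993 and 2056 bases per Mb in cerebellum against 1990.4 to 2112 in cortex and hypothalamus. SOX5 alone gave 255 to 940 of that sum in brain libraries. Gene by gene, cerebellum of P348 had 4 of the 15 at 0 and a start peak at 7. Cerebellum of P350 had 0 and 14, and cortex and hypothalamus had 0 and 13 to 14. Without the cerebellum libraries the median log2 difference in level was 0.66 for the members, 0.59 for the other lineage regulators and 0.62 for the other myelin genes. It was 0.66 for neuron genes and -0.22 for all genes. Called higher were 2 of 7 members, 4 of 15 lineage regulators, 8 of 24 myelin genes and 3 of 9 neuron genes, against 5.04% of all genes.

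**Figure D4:**
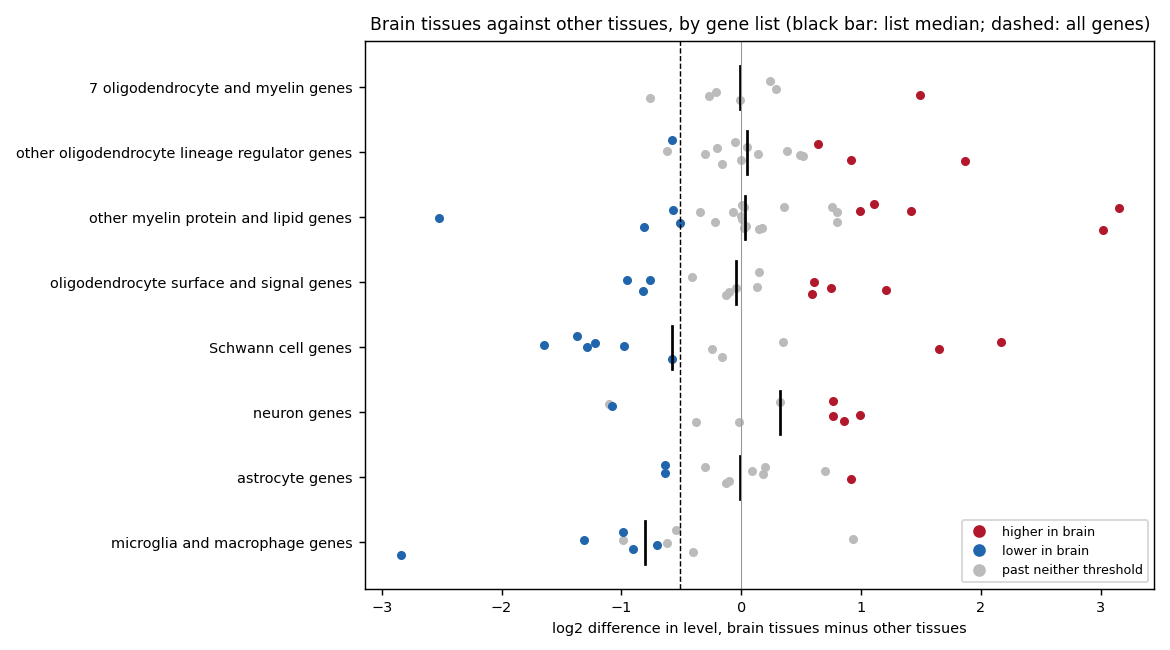
Log2 difference in level between brain and other tissues (x axis) for each gene of 8 lists (y axis), red where called higher in brain, blue where called lower and grey where neither, with a black bar at each list's median and a dashed line at the median of all genes, -0.51. The 7 members have 1 red and no blue point, and ERMN lies farthest to the right.

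Across the 16 libraries the levels of the members moved together only in part. The highest Pearson correlations of log2 levels between members were 0.78 for MOG with MAG, 0.68 for MAG with CNP and 0.67 for MOG with CNP, and the lowest was -0.36 for OLIG2 with CNP. OLIG1 and OLIG2, neighbours on the chromosome, had 0.32. The libraries share a tissue and a peak list length across genes, so these values describe the 16 lists and are given without a test. The 5 coding genes whose log2 levels were most like the members' mean standardised level were RNF220 (0.951), FAM222A (0.928), HID1 (0.922), NUAK1 (0.915) and RAB11FIP4 (0.913). RNF220 had 25.9 and 111 bases per Mb in cerebellum, 192 to 273 in cortex and hypothalamus and 108 to 187 in the other tissues.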

How the data were processed

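Peak lists of 16 pig ATAC-seq libraries, 8 tissues of 2 animals, were analysed, and cattle lists were not used here. Per the labels and methods, the authors trimmed reads with Trim Galore (0.4.5), aligned them to Sscrofa11.1 with BWA (0.7.17), filtered with SAMtools (1.10) and Picard (2.18.17), and called broad peaks with MACS2 at a q-value limit of 0.05. A Tn5 shift is not given in the sources used here. Each deposited list belongs to 1 library, with a score per peak, the fold enrichment over local background as a ratio, and p-value and q-value as −log10, averaged over the peak. List length grows with sequencing depth, which the lists do not give, so no counting interval is given.

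Genes came from RefSeq annotation release 106. Levels, as log2(level + 1), were tested in limma (3.58.1, R 4.3.3) with a mean per tissue, 19638 genes with a peak base in at least 2 libraries, and Benjamini-Hochberg adjustment over all of them at 0.05. Fold changes are on that scale and understate changes of low levels. The script was tested on simulated data. The 2 pigs are littermates, so p-values measure the spread between 2 animals of each tissue. Libraries of 1 animal share its name, which pairs them. The correlation of the animals' difference between tissues had a mean of 0.00 over 28 tissue pairs (-0.16 to 0.12).

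The 7 genes and the lists were chosen with earlier results of these data known. Named were all members and, of each other list, the 3 highest differences, the lowest and those called against most calls of their list, the 5 most alike genes, and for each member the region with the largest excess of brain over other libraries; regions past these were chosen after their values were seen. NINJ2, TF and ELAVL4 were not matched in the annotation. Some genes that this rule names are not reported here. Alternatives covered the pseudocount, filters, scaling, q-value, window, start distance, replicate block and left-out libraries.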

Additional observations from a re-analysis of the deposited data

Results flagged for a closer look

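Among 42 sets of libraries, 3 held a value far from the rest by Dixon's test at the 95% level, and chance alone gives about 5% of sets. The highest fold within 2 kb of the MBP start was 7.89 in skeletal muscle of P350, against 0 to 3.98 in the other 9 libraries from outside the brain. MAG had no peak (fold 0) near its start in cerebellum of P348, against 4.03 to 4.64 in the 5 other brain libraries. CNP likewise had none (fold 0) in cerebellum of P348, against 2.81 to 3.97. The same cerebellum library also lacked the start peak of MOG and SOX10 and had the lowest median level over all genes, and its part in these values was not tested.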

How the results depend on the processing

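The call of OLIG2 as the 1 member higher in brain rested on the measure. The number of members called higher in brain is given with the share of all genes called higher. It was 0 with a pseudocount of 0.1 (9.46%), the number of peaks (8.84%) and 6 against 10 libraries (2.58%). It was 2 with 50 kb on either side (13.2%), 2 kb around each start (4.09%) and without cerebellum (5.04%). Without cerebellum it was also 2 with centring (7.95%) and with the highest fold (14.6%). With that fold they were OLIG1 and CNP, and OLIG2 was at 1.02 with a limma adjusted p of 0.0914. It was 3 with q under 0.01 (8.60%), the gene alone (6.86%) and centring (18.4%), and 4 with q under 0.0001 (7.44%). The brain difference of SOX10, -0.01 in the report, was 0.27 with a pseudocount of 10, 0.06 undivided by the library total, 1.32 with lists of equal length, 1.52 with q under 0.01, 2.70 with q under 0.0001, 1.56 for the gene alone, 1.67 around the start, 0.53 with centring, 1.45 without cerebellum, 1.71 with both and 0.18 for the highest fold without cerebellum, but -0.54 with a pseudocount of 0.1, -0.38 with 50 kb, -0.08 with the number of peaks and -0.21 for the highest fold with cerebellum. That of MOG was 0.08 with q under 0.0001, 1.45 for the gene alone, 2.05 around the start, 0.23 with the number of peaks, 0.12 without peaks at other genes' starts, 0.27 with centring, 0.23 without cerebellum, 0.50 with both, and 0.00 and 0.06 for the highest fold with and without cerebellum. That of MAG was 0.73 with q under 0.0001, 0.78 around the start, 0.08 without cerebellum, 0.35 with centring too, and 0.02 and 0.11 for the highest fold, whereas MAG was called lower in brain with 50 kb (-0.83, adjusted p = 0.00249), with the number of peaks (-0.64, 0.00615) and without cerebellum of P350 (-1.28, 7.3e-04). That of CNP was 0.01 undivided, 0.09 for the gene alone, 0.33 with centring, 0.47 without cerebellum, 0.73 with both, and 0.27 and 0.59 for the highest fold, whereas CNP was called lower with 50 kb (-0.56, 0.0442) and with the number of peaks (-0.38, 0.0401). With 50 kb 58.5% of all genes were called lower, with the number of peaks 44.2% and without cerebellum of P350 52.4%. OLIG1 was at -0.03 with the number of peaks and MBP at -0.03 for the highest fold. For cortex against cerebellum there were 2 calls undivided (7.20% of all genes), with q under 0.0001 (11.4%) and for the gene alone (21.9%). There were also 2 for the highest fold, where 3928 of 19638 genes were called higher, and 1 with centring (5.82%). OLIG2 was at -0.09 with the number of peaks and -0.07 with centring. For hypothalamus against cerebellum there was 1 call undivided (0.581%), with lists of equal length (11.2%) and for the gene alone (7.58%). There was also 1 with the number of peaks (14.8%) and with centring (1.80%), and 5 with 50 kb (36.5%). OLIG2 was at -0.62 undivided, -0.07 with the number of peaks and -0.44 with centring. All 6 brain libraries were above all others for 1 member with q under 0.0001 and, for the 4 left, 1 with the highest fold without cerebellum. No share of all genes is given for these counts. Leaving out single libraries or an animal, the SOX10 brain difference ran from -0.26 to 0.24, OLIG2 in hypothalamus against cerebellum from -0.34 to 0.94, the calls for cortex against cerebellum from 1 to 5, those for hypothalamus against cerebellum from 1 to 6 and the members with brain libraries above all others from 0 to 1, which was OLIG2 without P348. With single libraries left out, the share of all genes called higher moved as well. It ran from 10.5% to 45.9% for cortex against cerebellum and from 0.848% to 36.3% for hypothalamus against cerebellum. No share is given for the members with brain libraries above all others. With the replicate block (the animal as a term) OLIG2 stayed at 1.49, and the counts of 1, 4, 0 and 2 calls did not change. The causes were not tested. Centring, leaving out cerebellum and the highest fold were alternatives chosen after seeing the data. The lists give no depth, and with 2 animals a tissue the smallest differences shown lie within the spread.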
